A study of Mus musculus with 4 samples.

Results

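The Hedgehog pathway core was read as 9 genes: the ligands Shh, Ihh and Dhh, the receptor Ptch1, the ligand-binding inhibitor Hhip, the transducer Smo and the transcription factors Gli1, Gli2 and Gli3. Its members were all probes of a mouse oligonucleotide array whose platform annotation names one of these genes, which gave 10 of 22702 probes, with 2 for Ptch1 and 1 for each other gene. The arrays compared metanephric mesenchyme (MM), the tissue from which the nephrons of the permanent kidney form, with intermediate mesoderm (IM), the mesoderm from which the urogenital tract arises, both taken at 10.5 dpc (days post coitum). Both were primary tissue dissected from embryos of both sexes, with no genotype, strain or treatment named, and amplified RNA of the 2 tissues was hybridised together on each of 4 arrays. MM was in channel 1 on arrays 1 and 2 and in channel 2 on arrays 3 and 4, where the labels swap the words mesenchyme and mesoderm and were read as the same tissues. The labels do not say how many embryos were pooled or whether arrays share RNA extracts. The main p-values come from a fit with a term for channel orientation. They reflect how far arrays of the same orientation vary, and the gap between orientations is left out of that error. Without the term, p-values reflect how far all 4 arrays vary. In either fit that variation may be technical only.

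Hedgehog ligands are secreted proteins that bind Ptch1, and this releases Smo from inhibition by Ptch1. Smo then acts in the primary cilium on the Gli proteins, of which Gli1 mainly activates, Gli3 mainly represses, and Gli2 can do both. Ptch1, Hhip and Gli1 are themselves classical targets of the pathway, and Ptch1 and Hhip feed back on it by binding the ligand. In the mouse, Shh is made by gut and cloacal epithelium, notochord, floor plate and the posterior limb bud, and later by the epithelium of the ureter and collecting system. Ihh acts in gut, yolk sac and cartilage, and Dhh in gonad, peripheral nerve and endothelium.

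Each value below is a deposited log2 ratio, taken as MM over IM, so that 1 means 2-fold higher in MM. The labels make this direction likely and do not settle it, because they name no dye for each channel. In bulk tissue, a change in the number of cells that express a gene and a change in its RNA per cell cannot be told apart. The table holds ratios and no levels, so it does not show whether a gene was expressed at all, and ratios of different genes say nothing of their relative abundance. The lowest value, -6.64 (a ratio of 0.01), was a floor and not a measured fold. Values were missing for 30.3% and 28.5% of probes on arrays 3 and 4, and for 5 and 3 of the 10 member probes. Ratios correlated at r = 0.836 between arrays 1 and 2 and at 0.912 between arrays 3 and 4, but at 0.113 to 0.274 across the 2 orientations (across 13191 probes with no value at the floor, and probes are not independent of each other).

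The 300-base promoter windows of Ptch1, the member with the most even ratio, Hhip, its fellow ligand-binding inhibitor, and Gli2 are shown because Ptch1 and Hhip are textbook Gli targets and Gli2 held a match to the core of the Gli site. They run 5′ to 3′ on each gene's strand, from 250 bases before to 50 after the gene's start (RefSeq, GRCm38.p6). Windows of 7 of the 9 genes were matched. Capitals mark a match to the 7-letter core of the Gli site, ACCACCC, on either strand. Ptch1 lies on chr13:63565686-63565985, Hhip on chr8:80057959-80058258 and Gli2 on chr1:119053570-119053869, all on the minus strand.
Ptch1: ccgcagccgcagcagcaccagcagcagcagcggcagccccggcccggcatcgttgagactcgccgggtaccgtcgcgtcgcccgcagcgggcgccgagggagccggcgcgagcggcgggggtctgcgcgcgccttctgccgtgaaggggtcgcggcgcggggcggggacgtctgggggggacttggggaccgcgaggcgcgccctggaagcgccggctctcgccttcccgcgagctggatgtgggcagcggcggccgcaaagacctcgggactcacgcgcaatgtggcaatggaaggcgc
Hhip: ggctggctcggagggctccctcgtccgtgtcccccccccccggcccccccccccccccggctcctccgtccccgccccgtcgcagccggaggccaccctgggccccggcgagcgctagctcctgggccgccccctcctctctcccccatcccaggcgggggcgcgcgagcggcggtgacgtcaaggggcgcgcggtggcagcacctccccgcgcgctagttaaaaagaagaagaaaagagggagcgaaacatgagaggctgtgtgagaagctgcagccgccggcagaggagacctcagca
Gli2: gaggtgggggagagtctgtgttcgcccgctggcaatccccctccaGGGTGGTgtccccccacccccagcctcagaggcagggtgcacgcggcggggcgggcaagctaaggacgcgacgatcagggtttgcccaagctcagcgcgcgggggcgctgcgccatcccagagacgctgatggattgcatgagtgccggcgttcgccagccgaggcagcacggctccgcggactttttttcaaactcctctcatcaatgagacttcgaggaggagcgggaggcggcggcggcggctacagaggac
The full 9-letter Gli site, GACCACCCA, which contains the core, was searched on both strands and was in 0 of the 7 windows and in 0.253% of all 32851 promoter windows. The core was in 1 of the 7, that of Gli2, as GGGTGGT beginning 205 bases before the start, and in 4.61% of all windows. These are matches of letters in a short window and say nothing about where a Gli protein binds.

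Among the ligands, Shh was higher in MM, Ihh had no common direction, and Dhh was high on one pair of arrays and at the floor on another array. With MM in channel 1, Shh had log2 ratios of 3.50 and 4.47 (arrays 1 and 2), and with MM in channel 2 it had 1.32 and 1.95 (arrays 3 and 4). All 4 were positive, and those of the 2 orientations did not overlap. Over the table, 7008 of 14184 tested probes (49.4%) had the same sign on all 4 arrays. The share whose orientations do not overlap was not counted. The average was 7.02-fold higher in MM (log2 2.81 ± 1.44, SD, n = 4 arrays), with a 95% confidence interval of 4.35 to 11.3-fold in limma with an orientation term (adjusted p = 0.00314). Without that term the interval on the log2 scale was 1.06 to 4.56 (limma adjusted p = 0.0431). The orientation term itself was 2.35 on the log2 scale (limma adjusted p = 0.0319), so the direction was shared by both orientations and the size was not. Of 14184 probes tested, 26 (0.183%) averaged as high as Shh or higher. The call was lost within each orientation alone (limma adjusted p = 0.0637 and 0.0599) and with each orientation averaged to 1 value (limma adjusted p = 0.488), a setting that left 0 calls over all probes and 1526 at an unadjusted p under 0.05.

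Ihh, the ligand of gut and cartilage, read 0.46 on array 1 and -0.53 on array 2 and had no value on arrays 3 and 4. Its 2 values differ in sign, as did those of 21.7% of the 4250 probes measured on arrays 1 and 2 alone, and no direction can be given. Dhh, the ligand of gonad and peripheral nerve, read 3.11 and 3.62 on arrays 1 and 2, had no value on array 3 and was at the floor on array 4. The orientations thus point opposite ways for Dhh. In a fit that accepts 3 values Dhh was called lower (limma adjusted p = 0.0196), a call that rests on the floor value and is no measured fold.

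**Figure D1:**
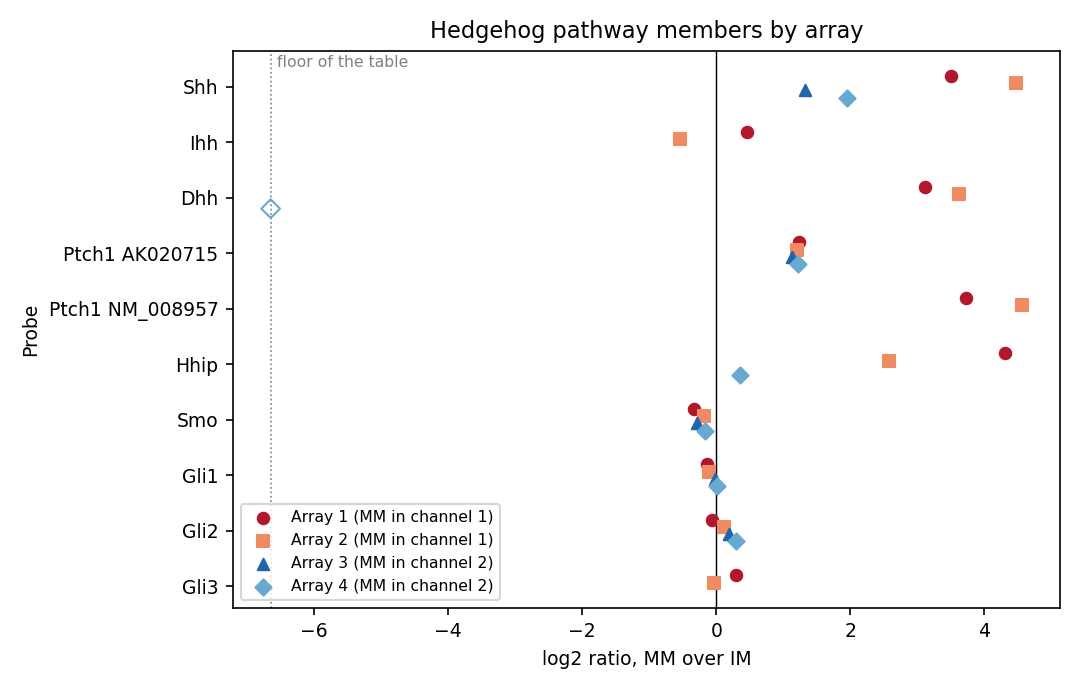
Log2 ratios (MM over IM, x axis) of the 10 member probes (y axis) on each of the 4 arrays, with an open symbol for the value at the floor. Shh and the Ptch1 probe AK020715 were positive on 4 arrays, and Smo was negative on 4, while 5 probes lacked at least 1 array. Over all tested probes, 49.4% had the same sign on 4 arrays.

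At the receptor, 1 probe of Ptch1 was higher in MM on all 4 arrays, and its other probe was high on arrays 1 and 2 alone. The probe for AK020715 read 1.23, 1.21, 1.13 and 1.22 on arrays 1 to 4. These values are nearly equal in both orientations. They average 2.29-fold higher in MM (log2 1.20 ± 0.05, SD, n = 4), with an interval of 2.15 to 2.45-fold (limma adjusted p = 0.000539, and 0.00168 without the orientation term). The orientation term was 0.05 on the log2 scale and did not pass (limma adjusted p = 0.579). Of the tested probes, 408 (2.88%) were at 1 or above on every array, and 33 of these had an SD as small as this Ptch1 probe's or smaller. This call was lost on arrays 1 and 2 alone (limma adjusted p = 0.061) and with orientations averaged (limma adjusted p = 0.461), and it held on arrays 3 and 4 alone (limma adjusted p = 0.0165).

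The probe for the Ptch1 messenger NM_008957 read 3.73 and 4.56 on arrays 1 and 2 and had no value on arrays 3 and 4. Those readings exceed the other Ptch1 probe's on the same arrays by 2.50 and 3.35 on the log2 scale. Both probes were thus positive on arrays 1 and 2, and they disagree about the size. The NM_008957 probe was measured in 1 orientation only and was not tested. A tissue difference and an orientation effect cannot be told apart in its values. Of the 4250 probes with values on arrays 1 and 2 alone, 407 (9.58%) read 3 or more on both.

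Hhip, the membrane inhibitor that traps the ligands, was positive wherever it was measured. It read 4.30 and 2.58 on arrays 1 and 2 and 0.36 on array 4, with no value on array 3. All 3 values were positive, with a wide spread (log2 2.41 ± 1.97, SD, n = 3). Fitted with the missing value allowed, Hhip was 1.90 on the log2 scale with an interval of -0.24 to 4.04 and did not pass (limma adjusted p = 0.095).

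Over the whole table, most probes with large ratios on both arrays 1 and 2 had no value on the other pair. Shh, Dhh and the NM_008957 probe of Ptch1 were among 686 probes at 3 or above on both arrays 1 and 2. These 686 were 3.2% of the 21461 probes with values on both arrays. Of those, 59.3% had no value on arrays 3 and 4 and 34.1% had the floor on at least 1 of them. Only 107 of the 686 had values on all 4 arrays and could exceed a limit on both arrays 3 and 4. Shh was one of 20 (2.92% of the 686) that exceeded 1 on both.

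Smo and the Gli factors had small ratios. Smo, the membrane protein that passes the signal inward, read -0.33, -0.18, -0.29 and -0.17 on arrays 1 to 4. It was lower in MM on every array and averaged -0.24 ± 0.08 (SD, n = 4). Over all tested probes, 14.2% were at -0.17 or lower on every array. Smo passed in both fits. The limma adjusted p was 0.0193 with the orientation term (interval -0.38 to -0.11) and 0.0386 without it. The call was lost when any 1 of the 4 arrays was left out (limma adjusted p = 0.0636 to 0.109). The size is ordinary for the table: 52% of tested probes averaged at least as far from 0, and the median tested probe averaged -0.08.

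Gli1, the activator induced by the pathway, read -0.13, -0.11, -0.01 and 0.01 on arrays 1 to 4. The values straddle 0 and average -0.06 ± 0.07 (SD, n = 4), and Gli1 did not pass (limma adjusted p = 0.121, interval -0.14 to 0.02). Gli2, the main carrier of the signal in the mouse embryo, read -0.07, 0.11, 0.18 and 0.30 and did not pass either (0.13 ± 0.15, SD, n = 4, limma adjusted p = 0.0954, interval -0.02 to 0.28). Gli3, the chief repressor, read 0.29 on array 1 and -0.04 on array 2 and lacked the other two. The interval thus reached down to -0.14 on the log2 scale for Gli1 and up to 0.28 for Gli2, and to -0.20 and 0.35 without the orientation term. These limits were -0.22 and 0.43 without array 3, -0.23 and 0.36 without array 4, and -0.62 and 0.75 with orientations averaged.

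**Figure D2:**
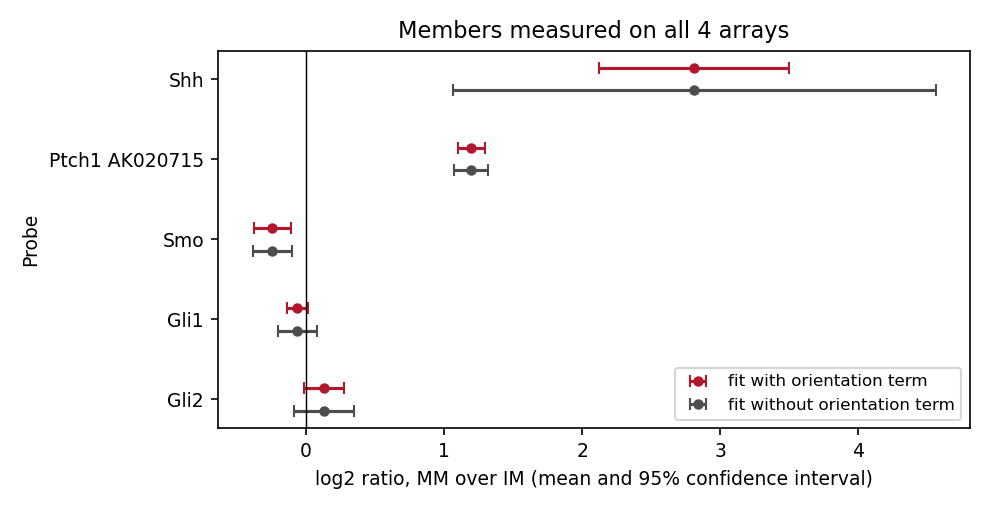
Mean log2 ratio (MM over IM, x axis) of the 5 member probes with 4 values (y axis), with 95% confidence intervals from limma with and without the orientation term. The intervals of Shh, Ptch1 and Smo exclude 0 in both fits, and those of Gli1 and Gli2 include it in both.

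Of the 10 member probes, 5 had values on all 4 arrays and could be tested, 1 each for Shh, Ptch1, Smo, Gli1 and Gli2. Of these, 2 were called higher and 1 was called lower in MM at an adjusted p under 0.05, and the same 3 passed in both fits. Over the 14184 probes tested, 23.8% were called higher and 38.1% lower with the orientation term, and 13.6% and 14.4% in both fits. Calls were thus common throughout the table, and 5 probes are too few to set the members apart from it by their count.

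**Figure D3:**
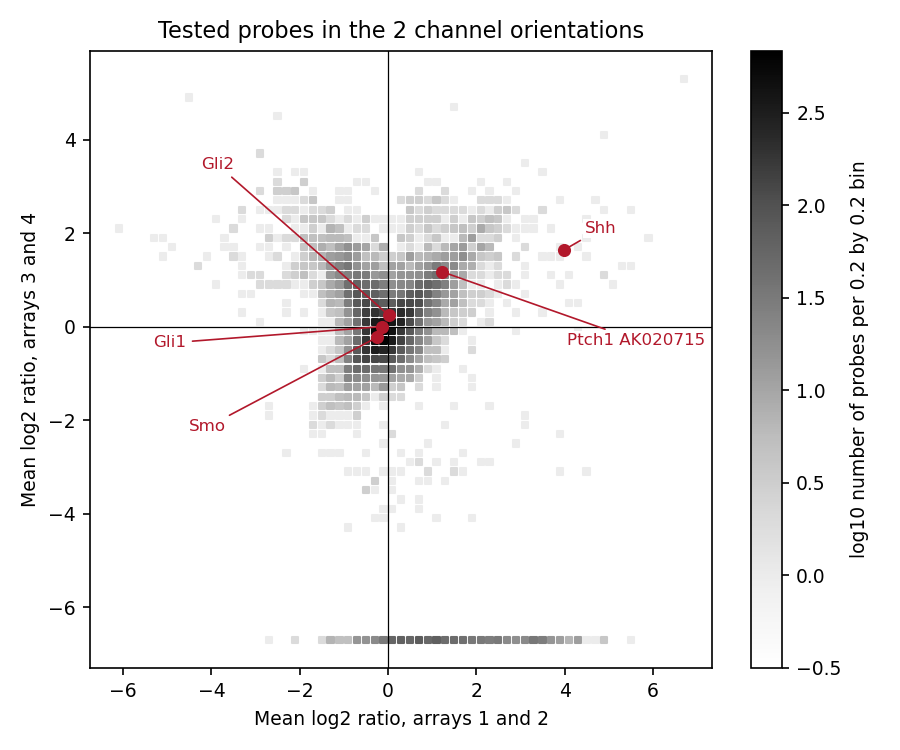
Mean log2 ratio on arrays 1 and 2 (x axis) against arrays 3 and 4 (y axis) for the 14184 tested probes, as shaded bins of 0.2 by 0.2, with the 5 tested members in red. Ptch1 lies near equal values (1.22 and 1.17), Shh is higher on arrays 1 and 2 (3.98 and 1.64), and Smo, Gli1 and Gli2 lie in the dense centre.

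The probes most like each member were found by the root mean square difference of log2 ratios over the 4 arrays, among 10868 named probes above the floor. Shh had 0 probes within 0.2 of it. The nearest were Spdl1, a mitotic spindle adaptor, at 0.369, the co-chaperone Dnajc8 at 0.56 and the Schlafen gene Slfn4 at 0.72. Ptch1 (AK020715) had 149 probes within 0.2, led by the kinetochore gene Nuf2 at 0.026, the E2F partner Tfdp1 at 0.028 and the helix-loop-helix factor Tcf12 at 0.048. Smo had 2107 such probes, led by Mrpl48, Rhoc and Ghrh. Gli1 had 2205, led by Usp42, Tmem123 and Calhm2, and Gli2 had 994, led by Ddit4l, Selenoi and Serpinf2. With so many near neighbours over 4 arrays, the names carry little information for Smo, Gli1 and Gli2.

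Of 83 other genes of the pathway in 5 lists, 50 could be tested with 56 probes, of which 24 probes were called higher and 21 lower in MM (13 and 13 in both fits). Over all tested probes 23.8% were called higher and 38.1% lower (13.6% and 14.4% in both fits). The median log2 ratio was 0.25 for ligand processing and release and 0.48 for coreceptors. It was -0.07 for intracellular transducers, -0.13 for cilium genes and 0.11 for genes known to respond to Hedgehog, beside -0.08 for all tested probes. By orientation (arrays 1 and 2, then arrays 3 and 4) it was 0.34 and -0.02 for ligand processing and release and 0.50 and 0.41 for coreceptors. It was 0.03 and -0.10 for transducers, 0.02 and -0.30 for cilium genes and 0.01 and -0.01 for responding genes. Only the coreceptor median kept its sign.

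In ligand processing and release, 3 of 5 tested genes were higher and 2 lower, with 1 higher and 0 lower in both fits. Hhat, the enzyme that palmitoylates Hedgehog ligands, was that gene, at 0.60 ± 0.24 (SD, n = 4, limma adjusted p = 0.0103). In the list named coreceptors, which also holds glypicans, 3 genes were tested, all 3 were higher and 2 of them in both fits. The one called in 1 fit only was the glypican Gpc3, at 0.16 ± 0.09 (limma adjusted p = 0.0212, and 0.126 without the orientation term). Gas1, a surface protein that helps Shh bind Ptch1, rose by 0.45 ± 0.08 (limma adjusted p = 0.0021). The glypican Gpc6 rose by 0.60 ± 0.13 and 0.51 ± 0.09 on its 2 probes. The coreceptors Boc and Cdon, named here for their role and outside the rule for named genes, could not be tested. Boc read 0.97 and 1.07 on arrays 1 and 2 alone, and Cdon read 1.70 and 0.66 there and stood at the floor on array 4.

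Of 13 tested intracellular transducers, 3 were called higher and 5 lower, of which 2 and 3 held in both fits. Another 2 had probes that disagreed in direction, and 3 were not called. Rab23, a small GTPase that restrains the pathway in the mouse, read 2.12, 2.03, 2.20 and 2.02 on arrays 1 to 4, and averaged 4.27-fold higher in MM (log2 2.09 ± 0.09, limma adjusted p = 0.000435). The orientations overlapped. Arrb1, a beta-arrestin, rose by 0.76 ± 0.12. Probes of the Gli kinases disagreed. Csnk1a1 was at -0.51 ± 0.15 by one probe and 0.61 ± 0.26 by another, and the 3 probes of Gsk3b gave 0.49 ± 0.08, 0.19 ± 0.15 and -0.20 ± 0.14. Sufu and Kif7, which bind Gli proteins, had too few values and are named for that role: the 2 Sufu probes read 0.33 and 0.08, and 0.30 and -0.02, on arrays 1 and 2, the second of them also -0.54 on array 4, and Kif7 read 0.72 and 0.16 on arrays 1 and 2.

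Of 16 tested genes of the cilium and intraflagellar transport, 6 were called higher and 8 lower, 2 were not called, and 2 of the higher and 6 of the lower calls held in both fits. Among the 8, Tmem67 had values at the floor. Ift20, a transport particle subunit, was 1.98-fold lower in MM (log2 -0.99 ± 0.12, limma adjusted p = 0.000577). Kif3a and Kifap3, 2 subunits of the anterograde motor, were at -0.65 ± 0.12 and -0.44 ± 0.14, while the dynein light intermediate chain Dync2li1 was at 0.57 ± 0.07, all 3 called in both fits.

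Of 13 tested genes known from other settings to respond to Hedgehog, 5 were called higher and 3 lower, while 5 were not called. Of those calls, 3 higher and 2 lower ones held in both fits. Mycn, a growth regulator, read 1.39, 1.40, 1.18 and 1.14 on arrays 1 to 4 and was 2.43-fold higher in MM (log2 1.28 ± 0.14, limma adjusted p = 0.000369). Foxf2, a forkhead factor of gut and limb mesenchyme, was 2.17-fold higher (1.12 ± 0.19). Sfrp1, a secreted Wnt antagonist, was lower in MM on both its probes (-1.52 ± 0.09 and -1.36 ± 0.22), and the nuclear receptor Nr2f2 was lower too, with values of -1.15, -1.03, -0.92 and -0.90 on arrays 1 to 4. Genes of this list therefore moved both ways in the comparison in which Shh and Ptch1 were higher.

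**Figure D4:**
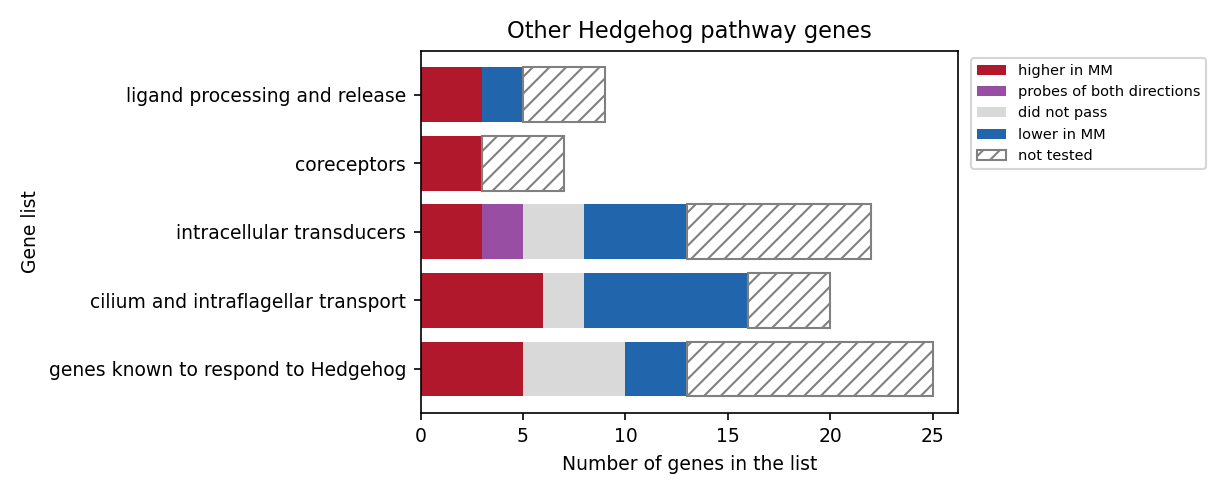
Number of genes (x axis) in each of 5 pathway lists (y axis) that were called higher or lower in MM, had probes that disagreed, were not called or were not tested. All 3 tested genes of the coreceptor list were called higher, 2 of them in both fits, whereas 6 of 16 cilium genes were higher and 8 lower.

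Marker lists for tissues that make or lie near Hedgehog ligands differed in direction. Genes of the endoderm and limb bud lists were called mostly higher in MM. Those of the neural tube and somite lists were mostly lower or not called. These counts stand beside the 23.8% higher and 38.1% lower calls over all tested probes, and 13.6% and 14.4% in both fits. Of 10 tested genes in the hindgut and endoderm list, 7 were higher and 0 lower in MM (4 and 0 in both fits). The list's median on single arrays was 0.20 to 0.85. The 7 were Cdh1, Cldn6, Cldn7, Epcam, Krt8, Krt19 and Sox17, and several of them are not particular to endoderm. Cdx1, Cdx2 and Foxa1 were not called, and Cdh1 read -0.35 and -0.07 on arrays 1 and 2. Of 7 tested genes of yolk sac endoderm, 6 were higher (5 in both fits) and 1, Trf, had probes that disagreed. The list's medians on single arrays were 1.13 to 1.30. The lower Trf call rests on floor values: its probe read 2.54 and 0.80 on arrays 1 and 2 and was at the floor on arrays 3 and 4. Of 9 tested genes in the list named posterior limb bud, 7 were higher and 0 lower (5 and 0 in both fits), with medians of 0.30 to 0.56. The 7 were Alx4, Grem1, Hoxa13, Hoxd13, Pitx1, Prrx1 and Tbx5, and not all of them are particular to the posterior part. Hoxd11 and Fgf8 were not called. Hoxd12, Hoxd13, Hand2 and Grem1 of that list also stand in the list of responding genes.

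Floor plate and notochord genes were higher in 0 of 4 tested and lower in 1, which was at the floor. Foxa2, a defining factor of floor plate, notochord and endoderm, read -3.65, 2.76 and 0.42 on arrays 1 to 3 by one probe. Its other probe gave -1.54 on array 1, -0.68 on array 2 and the floor on array 4, and neither could be tested. Of 6 tested ventral neural tube genes, 1 was higher and 4 were lower, and of 8 sclerotome and somite genes 0 were higher and 4 lower. Of 10 endothelial genes, 3 were higher and 4 lower. The part of these cells in the Shh, Ptch1 and Hhip values was not tested, and marker levels, as opposed to ratios, were not available here.

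The labelled tissues were checked in the same way. Of 11 tested MM markers, 5 were higher and 2 lower in MM (5 and 1 in both fits), 1 of the lower ones with a value at the floor, with Gdnf at 1.92 ± 0.13 and Six2 at 3.00 ± 0.63 but Wt1 at -1.57 ± 0.02. Of 7 tested genes of intermediate mesoderm and nephric duct, 2 were higher and 3 lower. Several of these genes, such as Osr1 and Pax2, mark both tissues, and a ratio does not show that a marker was absent.

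**Figure D5:**
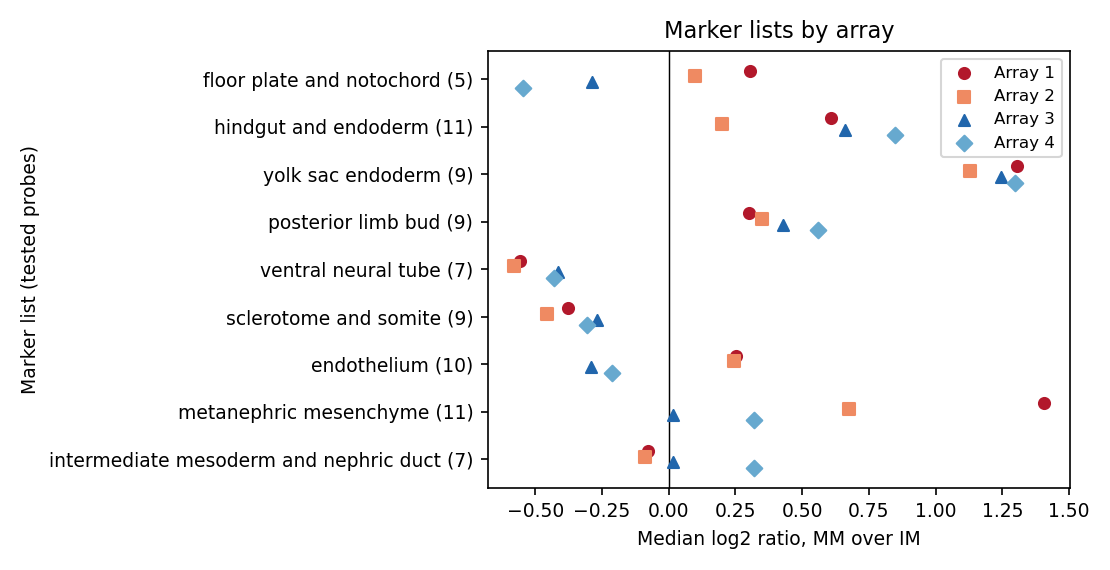
Median log2 ratio (MM over IM, x axis) of the tested probes of each marker list (y axis, number of probes in parentheses) on each of the 4 arrays. The endoderm and limb bud lists were above 0 on 4 arrays, and the neural tube and somite lists were below 0 on 4. The floor plate list, the endothelial list and the list of intermediate mesoderm and nephric duct changed sign between orientations.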

How the data were processed

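Log2 ratios of MM over IM, 1 per probe on each of 4 two-colour arrays, were used as deposited. Per the labels, spots were quantified with Imagene 5.5, the channels of arrays 3 and 4 were reversed for the dye swap, the control channel was adjusted by a Lowess fit with a span of 20.0%, and control values under 10 became 10. The sources used here do not state the background correction or any spot filter. No intensities were available, so the number of arrays limits the precision.

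Probes were named from the platform annotation, updated by gene ID through a RefSeq table (GRCm38.p6) that matched 16566 of 17252 probes with 1 symbol. Log2 ratios of the 14184 probes with 4 values were fitted with limma 3.58.1 in R 4.3.3, with terms for tissue and channel orientation, and p-values were adjusted over all of them by the Benjamini-Hochberg method (threshold 0.05). The fit was also run on simulated data drawn under its own assumptions, so that run is no check of those assumptions. Members, gene lists and tests were chosen with earlier results of these data known. In each pathway list, up to 4 genes of smallest p among those called in both fits and off the floor were named, with all their probes. Probes with fewer values are given without a test, and 1 pathway gene is not reported here. Across 13 alternatives, orientation, scaling, weights, missing values, the floor and single arrays were varied.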

Additional observations from a re-analysis of the deposited data

How the results depend on the processing

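Each orientation averaged to 1 value left 0 calls in limma over all probes, the members and the other pathway probes (1526, 1 and 11 at an unadjusted p under 0.05). Arrays 1 and 2 alone also gave 0 calls in limma for each (9294, 5 and 36 unadjusted). On arrays 3 and 4 alone 1 of 5 member probes, Ptch1, was called, beside 7732 of 14484 over all probes and 36 of 57 pathway probes. Without the orientation term, 3968 of all probes were called, against 8779 with it, and 26 pathway probes, against 45. Leaving out 1 array gave 5441 to 6790 calls over all probes and 28 to 37 among pathway probes. The fewest over all probes came without array 3 (5441) and without array 4 (5707), and the 28 came without array 4. Those fits used all probes measured on the remaining arrays. The members had 2 or 3 calls: Shh and Ptch1 were called in each of these 4 fits (adjusted p = 0.0296 to 0.0353 and 0.0146 to 0.0187), and the third call, without array 3, was Dhh with its floor value (adjusted p = 0.0338).

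Shh lost its call within each orientation alone (adjusted p = 0.0637 and 0.0599) and with orientations averaged (adjusted p = 0.488). Ptch1 lost it on arrays 1 and 2 alone (adjusted p = 0.061) and with orientations averaged (adjusted p = 0.461). Smo lost it in 7 of 13 alternatives. The cause of these losses was not tested. None of the 5 member probes with 4 values changed sign under the 13 alternatives, but several of these leave the average itself unchanged and so could not change its sign. Gli1 was at -4.6e-05 on arrays 3 and 4 alone, and Gli2 at 0.02 on arrays 1 and 2 alone. Dhh was -1.64 with its floor value and 3.37 on arrays 1 and 2 alone.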

Other observations

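A few pathway and marker genes read like Dhh, that is, high on arrays 1 and 2 and at the floor on another array. Prkacb, a catalytic subunit of protein kinase A, read 4.51 and 4.56 on these arrays, against the floor on array 4. Tmem67, a protein of the ciliary transition zone, read 3.68 and 4.50, against the floor on both other arrays. Chrd, a BMP antagonist of the notochord, read 3.52 and 4.11, with array 4 at the floor. Of the 686 probes at 3 or above on both arrays 1 and 2, 162 were at the floor on array 4. These genes were named after their values were seen.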
